A study of Mus musculus with 6 samples.

Results

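The 10 BCL2 family genes described here are 4 that encode inhibitors of cell death (Bcl2, Bcl2l1, Bcl2l2 and Mcl1) and 6 that encode promoters of it (Bak1, Bcl2l11, Bad, Bid, Bik and Bmf). They were listed by name for their part in cell survival, with earlier results of these data known, and all 10 were found by their GENCODE vM21 symbols among the 55536 genes counted. Bulk RNA-seq libraries were made from stromal cells of mouse quadriceps, sorted as CD45-, CD31- and CD29+, from animals on the C57Bl/6 strain that carried a tdTomato reporter of p16. In 3 libraries the cells were tdTomato-positive (p16+) and in 3 tdTomato-negative (p16-), so that both groups carried the reporter and the p16- libraries served as the comparison. Per the labels, muscle was removed from both thighs at 10 weeks of age in a model of fibrosis around a foreign body, and all animals were given carprofen. The filler of the defect (30 mg of polycaprolactone, decellularized matrix or 50 uL of saline), the harvest time (1 or 6 weeks), sex, and whether replicates came from separate animals are not given per library in the sources used here. If they did not, the p-values reflect the spread among these 6 libraries alone, which may be technical. What drives the reporter, beyond its name, is likewise not given in the sources used here.

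Proteins of this family decide whether the outer membrane of mitochondria stays closed. The effectors BAK and BAX form pores in it, which release cytochrome c and start the caspases. The inhibitors BCL-2, BCL-XL, BCL-W and MCL-1 hold the effectors and the BH3-only activators in check, while BH3-only proteins such as BIM, BID, BAD, BIK and BMF bind the inhibitors or trigger the effectors. Senescent cells, for which p16 is a widely used mark, are known to rely on such inhibitors to survive, and BH3 mimetic drugs that kill some senescent cells act on them.

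Members on both sides of this balance share a short helix, the BH3 domain, through which they bind each other. Its core is a leucine, 3 further residues, a small residue and an aspartate. Searched as codons in the longest vM21 coding sequence of each gene, this pattern was present exactly once in 9 of the 10 members and was not found in Bcl2l2. The search misses a core with another residue at a set position, so this does not mean that BCL-W lacks the domain. Among 6940 genes with coding sequences of 450 to 993 bases, the range of the members, 20.03% held the pattern at least once. The 42-base stretches around it are shown for the 3 members whose level differed between the groups (Mcl1, Bak1 and Bcl2l11) and for the 2 whose small residue was not glycine (Bad and Bmf), with the codons of the leucine, of the small residue and of the aspartate in capitals, 5′ to 3′ on the coding strand. The stretches lie within 1 exon each, at chr3:95659424-95659465 (plus strand) for Mcl1, chr17:27022528-27022569 (minus strand) for Bak1, chr2:128147138-128147179 (plus strand) for Bcl2l11, chr19:6950780-6950821 (plus strand) for Bad and chr2:118545097-118545138 (minus strand) for Bmf, all GRCm38.
Mcl1: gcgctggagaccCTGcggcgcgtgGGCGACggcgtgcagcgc
Bak1: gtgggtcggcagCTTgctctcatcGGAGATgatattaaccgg
Bcl2l11: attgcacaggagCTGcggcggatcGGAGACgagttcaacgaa
Bad: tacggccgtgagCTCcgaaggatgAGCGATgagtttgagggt
Bmf: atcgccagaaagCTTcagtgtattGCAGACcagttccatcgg
The small residue was glycine in Mcl1, Bak1 and Bcl2l11, with a GGC or GGA codon, serine in Bad (AGC) and alanine in Bmf (GCA).

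The libraries held 35253406 to 39103909 counts. All 10 members passed the filter on low counts and were tested among 15903 genes with edgeR's quasi-likelihood test, in which 16.7% of genes passed an adjusted p of 0.05 (8.69% higher and 8.04% lower in p16+). Cdkn2a, the gene of p16, stood at 6.91 to 8.82 CPM, TMM-scaled counts normalised to library depth, in p16+. In p16- it stood at 1.77 to 2.41 CPM. Of the genes behind the sort, Pecam1 (CD31) was higher in p16+ (5.01 to 8.12 against 2.56 to 4.11 CPM, edgeR adjusted p = 0.00871), and neither Ptprc (CD45, 5.37 to 9.77 against 4.14 to 5.93 CPM, adjusted p = 0.0602) nor Itgb1 (CD29, 869 to 913 against 696 to 790 CPM, adjusted p = 0.0543) passed. Stromal markers were abundant in all libraries, and of 8 tested 4 rose (Col1a1, Col1a2, Lum and Thy1) and 1 fell (Ly6a), with summed levels of 85572 to 88210 CPM in p16+ and 51847 to 58918 CPM in p16-. Markers of other cells differed between the groups too. Of 14 tested macrophage and leukocyte markers, 7 rose and 0 fell in p16+, with summed levels of 299.7 to 351 CPM in p16+ and 212 to 239 CPM in p16-. Fcgr1 was at 0 in 1 library. Of 9 pericyte and smooth muscle markers, 6 rose and 0 fell (2033 to 2111 and 1347 to 1707 CPM). Of 6 glial markers, 0 rose and 5 fell (43.0 to 54.6 and 81.6 to 146 CPM). Of 9 endothelial markers, 3 rose and 1, Tek, fell (89.6 to 115 and 194 to 225 CPM). Of 5 satellite cell markers, 2 rose and 0 fell (21.5 to 29.0 and 13.9 to 24.4 CPM). Of 4 neutrophil markers, 1, Mmp8, rose and 0 fell (7.98 to 8.79 and 6.51 to 7.13 CPM). Lymphocyte markers, with 0 of 3 tested called, summed to 2.67 to 3.12 and 1.03 to 2.04 CPM. Cd3e, Cd3d, Ms4a1 and Nkg7 were among those at 0 in at least 1 library. Adipocyte markers, with 0 of 2 called, summed to 0.088 to 1.51 and 0.656 to 5.06 CPM. Epithelial markers, with 0 of 1 called, summed to 0.248 to 0.759 and 0.618 to 1.23 CPM. Muscle fibre markers, with 0 of 6 called, lay at 15.5 to 26.7 and 15.7 to 22.4 CPM. The part of these cells in the results below was not tested, and in bulk samples fewer cells of a type and less RNA per cell cannot be told apart.

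Of the 4 anti-apoptotic members, Mcl1 fell in p16+ cells and the other 3 did not pass the test, where 8.04% of all genes tested were called lower. Mcl1 (ENSMUSG00000038612.16, chromosome 3, 95658788 to 95663176, plus strand) encodes a short-lived inhibitor that binds BAK and BIM. It had 705, 716 and 745 CPM in the 3 p16+ libraries and 1275, 997 and 1063 CPM in the 3 p16- libraries. The p16+ values lay close together. They were below each p16- value, as for 16.5% of all genes tested, and p16- replicate 1 was the highest. The means were 722 ± 20.7 and 1112 ± 146 CPM (SD, n = 3 each), a log2 fold change of -0.62 (SE 0.09, 95% interval -0.82 to -0.43, edgeR adjusted p = 0.000159), or a level 1.54-fold higher in p16-. Without p16- replicate 1 the log2 fold change was -0.51 (adjusted p = 2.47e-05). A two-sided exact permutation of the libraries gave p = 0.1, the lower limit of this design with 3 per group. No annotated exon of another gene overlaps Mcl1.

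Mcl1 can respond rapidly to stimulation, and 16 immediate-early genes were read beside it (a list chosen after the values of Mcl1 were seen). In p16+, 0 of the 16 rose and 7 fell, namely Junb, Egr1, Atf3, Zfp36, Btg2, Myc and Klf4, where 8.04% of all genes tested fell, and their summed level was 26633 to 28143 CPM in p16+ and 30832 to 35134 CPM in p16-. Whether this response had a part in the difference of Mcl1 was not tested.

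The other anti-apoptotic genes were slightly higher on average in p16+, without passing. Bcl2l2, which encodes BCL-W, had 49.9 to 55.1 CPM in p16+ and 46.6 to 47.9 CPM in p16-. These ranges did not overlap, as was the case for 33.1% of all genes tested, and the log2 fold change was 0.13 (95% interval -0.04 to 0.30, edgeR adjusted p = 0.335). Of its exonic length 13.3% is shared with Gm20521, a gene model on the same strand that held at most 2 counts in a library. Bcl2l1, which encodes BCL-XL, had 18.7 to 21.1 CPM in p16+ and 15.8 to 19.7 CPM in p16- (0.19, 95% interval -0.06 to 0.45, edgeR adjusted p = 0.323). Its protein is a main target of the drugs used against senescent cells. Bcl2 itself had 9.23 to 11.7 CPM in p16+ and 7.54 to 9.78 CPM in p16- (0.18, 95% interval -0.17 to 0.53, edgeR adjusted p = 0.529). Of its exonic length 6.09% is overlapped by a gene model with 0 counts. The values of Bcl2l1 and Bcl2 overlapped between the groups. The intervals leave room for a rise of Bcl2l1 by up to 0.45 and of Bcl2 by up to 0.53 on the log2 scale. The median log2 fold change over the 4 anti-apoptotic members was 0.15, against -0.01 over all genes tested.

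**Figure D1:**
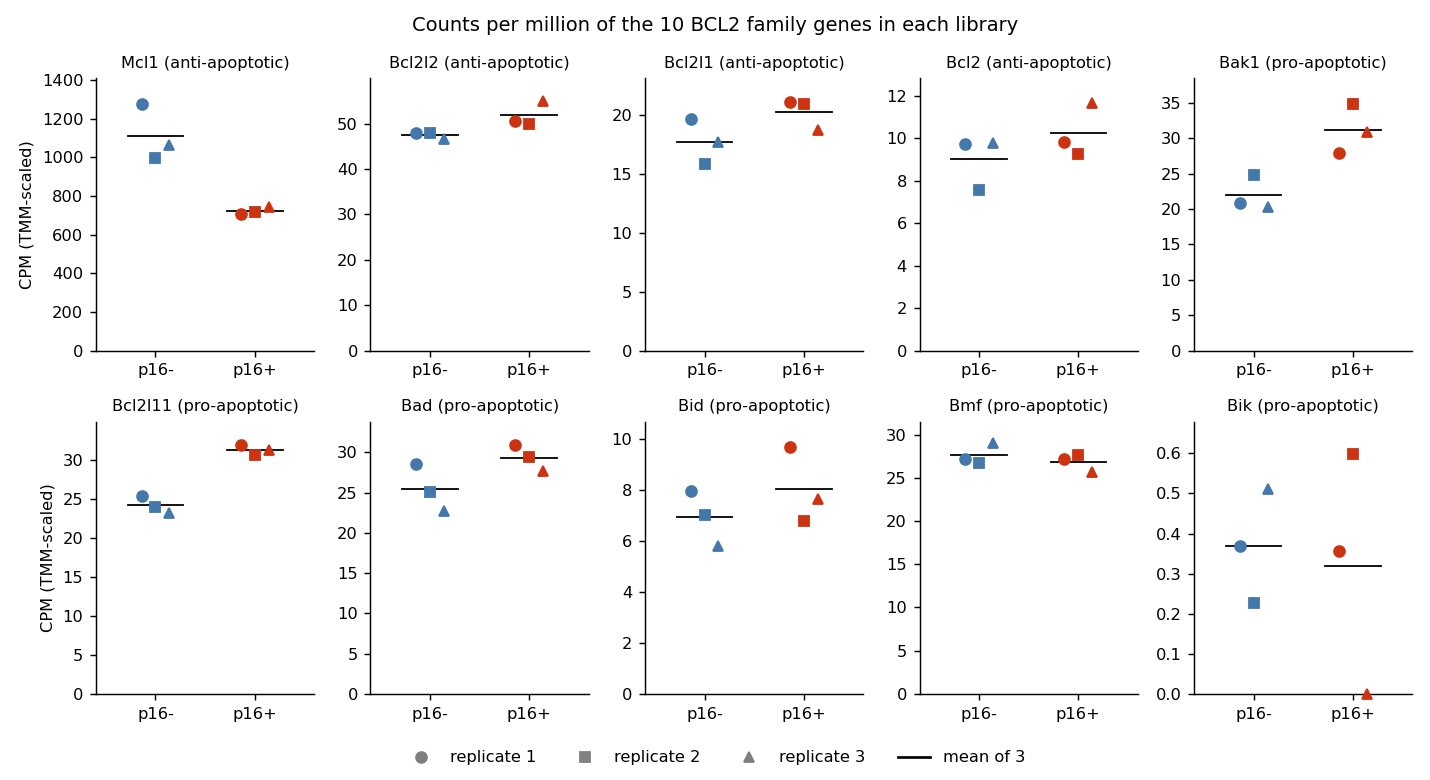
CPM (vertical axis of each panel, starting at 0) of the 10 members in the 3 p16- (blue) and 3 p16+ (red) libraries, with a symbol for each replicate number and a line at the mean of 3. Mcl1 lies lower and Bak1 and Bcl2l11 lie higher in all 3 p16+ libraries than in any p16- library, and the values of the other members overlap between the groups except for Bcl2l2. Among all genes tested, 33.1% did not overlap between the groups.

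Of the 6 pro-apoptotic members, Bak1 and Bcl2l11 rose in p16+ cells, 0 fell and 4 did not pass, where 8.69% of all genes tested were called higher. Bak1 (ENSMUSG00000057789.14, chromosome 17, 27019810 to 27029009, minus strand), the gene of the effector BAK, had 27.9, 34.9 and 30.8 CPM in p16+ and 20.9, 24.7 and 20.3 CPM in p16-. Each p16+ library lay above each p16- library, as for 16.6% of all genes tested. The means were 31.2 ± 3.49 and 22.0 ± 2.42 CPM (SD, n = 3 each), a log2 fold change of 0.51 (SE 0.12, 95% interval 0.26 to 0.75, edgeR adjusted p = 0.00598), or 1.42-fold. Of its exonic length 25.5% is overlapped by Ggnbp1 on the opposite strand. Fragments there cannot be told apart by strand and are counted for neither gene. Ggnbp1 itself held at most 16 counts in a library, which leave out the shared stretch.

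Bcl2l11 (ENSMUSG00000027381.16, chromosome 2, 128126038 to 128162547, plus strand), the gene of the BH3-only activator BIM, had 32.0, 30.8 and 31.3 CPM in p16+ and 25.4, 24.0 and 23.3 CPM in p16-. The groups did not overlap, as for 33.1% of all genes tested in either direction, and the spread within each was small. The means were 31.3 ± 0.602 and 24.2 ± 1.09 CPM (SD, n = 3 each), a log2 fold change of 0.37 (SE 0.10, 95% interval 0.17 to 0.57, edgeR adjusted p = 0.0129), or 1.29-fold. Without p16- replicate 3 the call was lost (log2 fold change 0.34, adjusted p = 0.0633). For both genes the exact permutation p was again 0.1, two-sided. Counts per gene do not separate the splice forms of BIM.

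The BH3-only genes Bad, Bid, Bik and Bmf did not pass. Bad, whose protein is held inactive by survival kinases, had 27.6 to 30.9 CPM in p16+ and 22.7 to 28.6 CPM in p16- (log2 fold change 0.20, 95% interval -0.03 to 0.43, edgeR adjusted p = 0.24). Of its exonic length 20.5% is overlapped by Gpr137 on the opposite strand, a gene with 571 to 875 counts per library, so that the count of Bad is uncertain to that extent. Bid, whose protein links death receptors to mitochondria once caspase-8 cuts it, had 6.78 to 9.68 CPM in p16+ and 5.81 to 7.96 CPM in p16- (0.21, 95% interval -0.19 to 0.62, edgeR adjusted p = 0.524), with 17.7% of its exonic length overlapped by Bcl2l13. Bmf, whose protein is tethered to the cytoskeleton, had 25.7 to 27.7 CPM in p16+ and 26.7 to 29.0 CPM in p16-. Its log2 fold change of -0.04 had the interval -0.25 to 0.16 (edgeR adjusted p = 0.825). Bik was near the limit of detection, with 13, 22 and 0 counts in p16+ and 15, 9 and 19 counts in p16-, and its interval of -2.25 to 1.85 on the log2 scale allows no statement on direction. In the library with 0 counts of Bik, 3 counts, the limit that a count of 0 allows, would correspond to 0.0876 CPM, for counting error only. The median log2 fold change over the 6 pro-apoptotic members was 0.21, against -0.01 over all genes tested.

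Beside the 10 members, 15 other genes of the family or close to it were listed, of which 11 passed the filter. Of these 3 rose (Bax, Bok and Pmaip1), 0 fell and 8 did not pass, with 8.69% of all genes called higher. Pmaip1, which encodes NOXA, a BH3-only protein that binds mainly MCL-1 and is a p53 target, had 8.97, 12.5 and 16.9 CPM in p16+ and 6.29, 6.61 and 5.46 CPM in p16- (log2 fold change 1.06, SE 0.20, edgeR adjusted p = 0.00164). The p16+ values were spread widely. All lay above those of p16-, as for 16.6% of all genes tested. Bok, an effector-like gene, had 16.6, 11.6 and 11.6 CPM in p16+ and 7.87, 8.85 and 8.39 CPM in p16- (0.67, SE 0.17, edgeR adjusted p = 0.0104), and without p16+ replicate 1 its call was lost (0.47, adjusted p = 0.0765). Bax, the gene of the second classical effector and also a p53 target, had 34.3 to 35.0 CPM in p16+ and 25.9 to 29.1 CPM in p16- (0.32, SE 0.09, edgeR adjusted p = 0.0248). The groups did not overlap, yet the call of Bax was lost when any 1 of the p16+ libraries, or p16- replicate 2 or 3, was left out, with adjusted p-values of up to 0.0879. Scaling by library sizes alone also ended it (adjusted p = 0.0833). Of its exonic length 12.2% is shared with Gm45808, which held at most 3 counts in a library.

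Bbc3, which encodes the BH3-only p53 target PUMA, had 4.18 to 6.27 CPM in p16+ and 3.98 to 4.23 CPM in p16- and did not pass (log2 fold change 0.36, edgeR adjusted p = 0.313). Bnip3 and Bnip3l, known for their part in the removal of mitochondria, had log2 fold changes of 0.08 and -0.05, and Bcl2l13 and Bcl2l12 of 0.06 and 0.22, none of which passed. Of the exonic length of Bcl2l12 33.4%, and of that of Bnip3 22.2%, is overlapped by other genes, in Bcl2l12 mainly Irf3 with 1142 to 1747 counts. Hrk, Bcl2l15 and Bcl2a1b had means under 1 CPM in both groups, with log2 fold changes of -1.57, 0.61 and 1.73 that did not pass. The Bcl2a1 genes encode an inhibitor typical of leukocytes and are near-identical copies, so that their counts are uncertain. Of the exonic length of Bcl2a1b 49.1%, and of that of Bcl2l15 20.97%, is overlapped by gene models with 0 counts. Bcl2a1a, Bcl2a1d, Bcl2l10 and Bcl2l14 were left out by the filter.

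**Figure D2:**
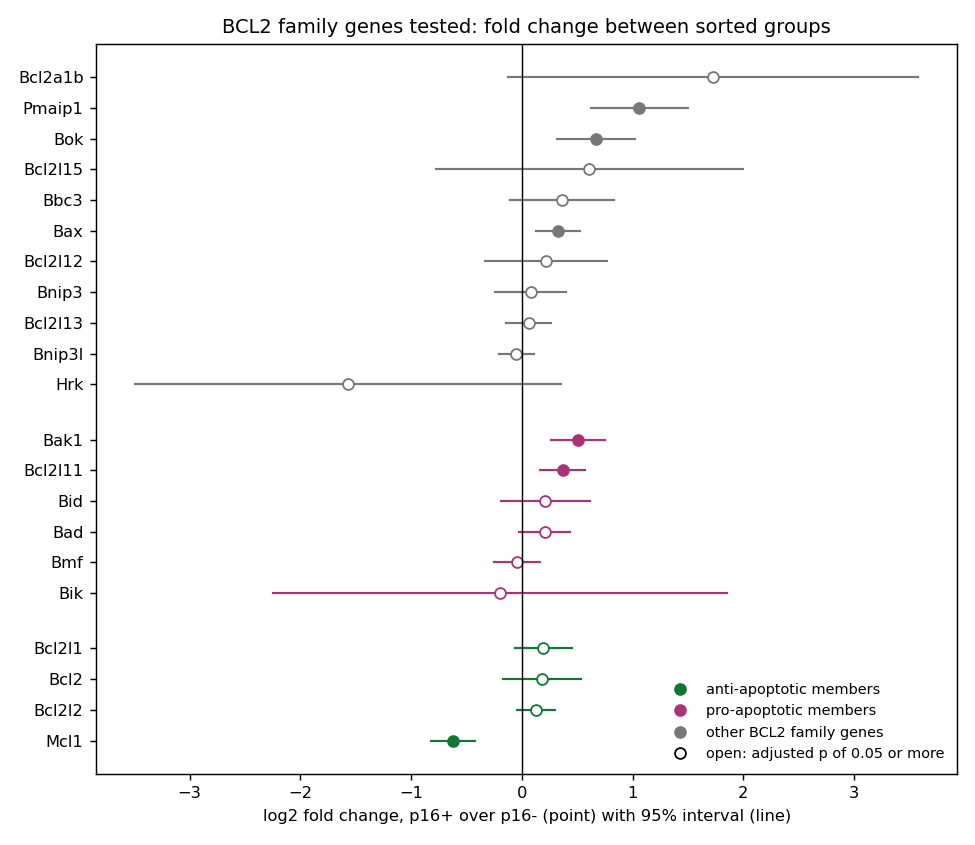
Log2 fold change of p16+ over p16- (horizontal axis) with its 95% interval for the 21 BCL2 family genes that were tested, with filled points for an adjusted p under 0.05. Mcl1 at -0.62 is the called gene below 0, and Bcl2l11, Bak1, Bax, Bok and Pmaip1, from 0.32 to 1.06, are the called genes above it.

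Levels were compared between genes after division by the exonic length (RPKM). Mcl1 was the most abundant member by a wide margin in both groups, at 211 ± 6.05 RPKM in p16+ and 325 ± 42.6 RPKM in p16- (SD, n = 3 each). It ranked 161 among the 15903 genes tested in p16+ and 107 in p16-. In p16+ Bak1 came next at 13.0 ± 1.45 RPKM, followed by Bcl2l2 at 11.6 ± 0.638 and Bad at 11.5 ± 0.641, and the values of these neighbours overlapped. In p16- the order was Bcl2l2 at 10.6 ± 0.174, Bad at 9.95 ± 1.16 and Bak1 at 9.13 ± 1.01 RPKM, again with overlap between neighbours. Below them the order was the same in both groups and neighbours did not overlap: Bmf (5.11 and 5.26 RPKM in p16+ and p16-), Bcl2l1 (4.42 and 3.86), Bcl2l11 (3.90 and 3.02), Bid (2.26 and 1.95), Bcl2 (1.12 and 0.985) and Bik (0.20 and 0.232). The lengths are those of all annotated exons together. A gene with long alternative ends, such as Bcl2 with 9157 bases, is thus placed lower than its main transcript alone would be. Exons shared with another gene add to the length, while fragments on them are not counted. Levels of Bak1, Bad, Bid and Bcl2l2 may therefore be understated, with 25.5%, 20.5%, 17.7% and 13.3% of their length shared, against 0% for Mcl1. The ratios between genes below carry the same limit.

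Ratios within a library do not depend on how libraries are scaled to each other. Mcl1 made up 92.4% to 92.6% of the summed RPKM of the 4 anti-apoptotic members in p16+ and 95.1% to 95.9% in p16-. The ratio of Mcl1 to Bak1 was 17.8, 14.5 and 17.0 in p16+ and 43.0, 28.4 and 36.9 in p16-. That of Mcl1 to Bcl2l11 was 51.8, 54.7 and 55.9 in p16+ and 117.9, 97.4 and 107.3 in p16-. For both ratios each p16+ library was lower than each p16- library. This had to follow, since Mcl1 was lower and Bak1 and Bcl2l11 were higher in every p16+ library, so it adds no support. The summed anti-apoptotic level over the summed pro-apoptotic level of the members was 6.24, 6.05 and 6.82 in p16+ and 12.7, 10.1 and 11.8 in p16-. Without Mcl1 it was 0.475, 0.448 and 0.513 in p16+ and 0.525, 0.496 and 0.555 in p16-, and the groups overlapped. The separation of the summed ratio thus held with Mcl1 in the sum and not without it. The anti-apoptotic sum without Mcl1 was 16.8 to 17.7 RPKM in p16+ and 15.0 to 16.1 RPKM in p16-. The pro-apoptotic sum was 34.5 to 37.4 and 27.7 to 30.7 RPKM, so that both sums were higher in p16+. These ratios and sums are a description of transcript levels, without a test, since the genes in them were chosen or singled out with results known.

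**Figure D3:**
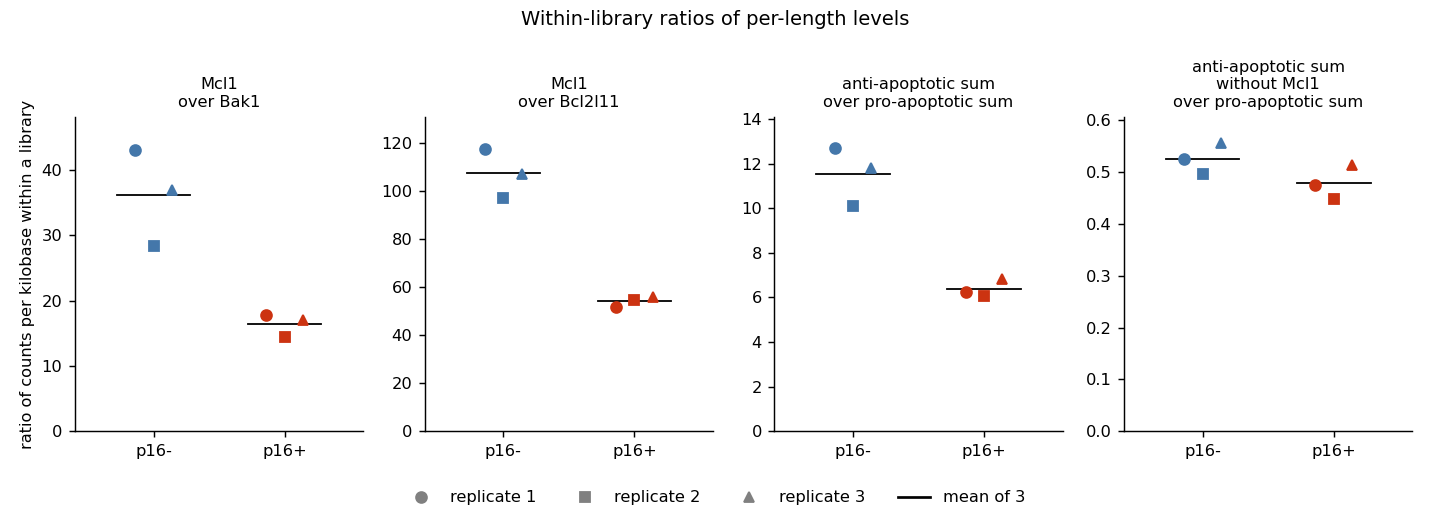
Ratio of RPKM within each library (vertical axes, starting at 0) for Mcl1 over Bak1, Mcl1 over Bcl2l11, the summed anti- over pro-apoptotic members, and the same sum without Mcl1, in 3 p16- (blue) and 3 p16+ (red) libraries with a line at the mean. The first 3 ratios are lower in every p16+ library than in any p16- library (means of 16.4 against 36.1, 54.1 against 107.5 and 6.37 against 11.5), and the fourth overlaps. The separation of the first 3 was fixed by their parts, with a lower numerator and a higher denominator in every p16+ library.

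The upstream sequences of Mcl1, which fell, and of Bcl2l11, which rose, are shown for comparison, as the 250 bases before the RefSeq start (GRCm38.p6). Matches to GTAAACA, the core bound by FOXO factors, which are known activators of Bcl2l11, to CCGGAA, a core of ETS factors, and to TGANTCA, the AP-1 core, were searched on both strands and are in capitals. The motifs did not overlap in these windows. Of the 32851 such windows held by RefSeq, GTAAACA was in 3.17%, CCGGAA in 12% and TGANTCA in 6.75%. The window of Mcl1 is chr3:95658471-95658720 on the plus strand, and that of Bcl2l11 is chr2:128125788-128126037 on the plus strand, the first of its 2 windows.
Mcl1: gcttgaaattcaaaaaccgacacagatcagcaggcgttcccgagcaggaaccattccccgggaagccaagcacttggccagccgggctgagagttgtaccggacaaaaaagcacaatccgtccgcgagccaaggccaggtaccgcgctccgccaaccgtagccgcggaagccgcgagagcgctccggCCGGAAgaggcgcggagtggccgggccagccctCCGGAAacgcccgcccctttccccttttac
Bcl2l11: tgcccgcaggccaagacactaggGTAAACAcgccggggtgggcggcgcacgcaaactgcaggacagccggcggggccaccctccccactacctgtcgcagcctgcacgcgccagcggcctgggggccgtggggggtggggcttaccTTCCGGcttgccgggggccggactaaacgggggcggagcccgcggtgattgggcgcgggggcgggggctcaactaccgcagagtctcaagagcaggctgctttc
CCGGAA began at position -63 and again at -30 relative to the start in Mcl1 and, on the opposite strand, at -104 in Bcl2l11, and GTAAACA began at -227 in Bcl2l11. The window of Bak1 and the second window of Bcl2l11 held no match to the 3 motifs. Members that did not pass held CCGGAA too, at -175 in the second window of Bad and at -145, on the opposite strand, in Bid. A match is a match of letters and was not tied to the levels measured here.

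Of 31 tested regulators of BCL2 family genes and proteins, 3 rose (among them Foxo3 and Akt1), 3 fell (Foxo1, Stat5b and Mapk9) and 25 did not pass, with a median log2 fold change of -0.03. The share called in this list was near the 16.7% of all genes tested, so that the count is no result about the list, and the genes below are given by their own values. Foxo1 had 48.7 ± 4.27 CPM in p16- and fell to 29.8 ± 2.94 CPM among p16+ libraries (log2 fold change -0.71, edgeR adjusted p = 0.000107), while Foxo3, whose factor shares the same DNA core, rose from 74.2 ± 2.44 to 89.7 ± 6.58 CPM (0.28, adjusted p = 0.0229). Stat5b, a cytokine-activated factor known to drive Bcl2l1, fell from 80.6 ± 7.45 to 57.0 ± 2.84 CPM (-0.50, adjusted p = 0.000543). Mapk9, the gene of the stress kinase JNK2, fell from 62.4 ± 3.93 to 48.9 ± 2.02 CPM (-0.35, adjusted p = 0.00617). Akt1, the gene of a kinase that acts on BAD and FOXO proteins, was named after its values were seen, with a log2 fold change of 0.22 (adjusted p = 0.0464). Scaling by library sizes alone ended the calls of Foxo3 and Akt1 (adjusted p = 0.0834 and 0.174). Leaving out a library ended that of Foxo3 for p16+ replicates 2 and 3 and p16- replicate 2 (up to 0.137). The call of Akt1 was kept without p16- replicate 1 and ended by each other library left out (up to 0.161) and by testing without the filter (0.0687).

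Of 15 genes listed for mitochondrial apoptosis execution, 1 rose, 0 fell and 14 did not pass, against 16.7% of all genes called in either direction. The list included the mitochondrial channel genes Vdac1, Vdac2 and Vdac3, which did not pass. Casp6, an executioner caspase gene, rose from 16.4 ± 1.3 to 21.6 ± 2.34 CPM (log2 fold change 0.40, edgeR adjusted p = 0.0332), a call that ended under scaling by library sizes alone (adjusted p = 0.0832) and when p16+ replicate 1 or 2, or p16- replicate 2 or 3, was left out (up to 0.128). Of 8 tested inhibitors of apoptosis proteins, 0 passed by edgeR and 0 by DESeq2, and 1 had an unadjusted p under 0.05. That gene was Birc3, which encodes the ubiquitin ligase cIAP2 and had the highest mean CPM of the list over the 6 libraries, with 93.3 ± 6.75 CPM in p16+ against 110.6 ± 17.6 CPM in p16- (edgeR adjusted p = 0.118).

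Of 11 tested death receptor pathway genes, 2 rose, 2 fell and 7 did not pass, against the same 16.7% of all genes. Tnfrsf10b, the mouse TRAIL receptor gene and a p53 target, had 11.4, 12.2 and 11.9 CPM in p16+ and 6.42, 6.71 and 5.91 CPM in p16- (log2 fold change 0.90, SE 0.15, edgeR adjusted p = 0.000512). Ripk1, the gene of a kinase that directs TNF signals to survival or death, had 70.8, 74.4 and 79.4 CPM in p16+ and 131, 99.6 and 106 CPM in p16- (-0.58, SE 0.10, edgeR adjusted p = 0.000455). Of its exonic length 2.89% is overlapped on the opposite strand by Serpinb6a, which held 15521 to 32779 counts, so that the count of Ripk1 is uncertain there. As for Mcl1, p16- replicate 1 was the highest, and without it the log2 fold change of Ripk1 was -0.46. Cyld, a deubiquitinase gene, fell from 44.7 ± 1.56 to 36.2 ± 1.51 CPM (-0.30, adjusted p = 0.0209), and Casp8, the initiator caspase gene, rose from 26.5 ± 1.71 to 33.8 ± 3.96 CPM (0.35, adjusted p = 0.0349). The call of Cyld ended when p16+ replicate 1 or 3, or p16- replicate 2 or 3, was left out (adjusted p of up to 0.0871). That of Casp8 ended when p16+ replicate 2 or 3, or p16- replicate 1 or 3, was left out (up to 0.149) and under scaling by library sizes alone (0.0844). Fasl had 0 counts in each library.

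**Figure D4:**
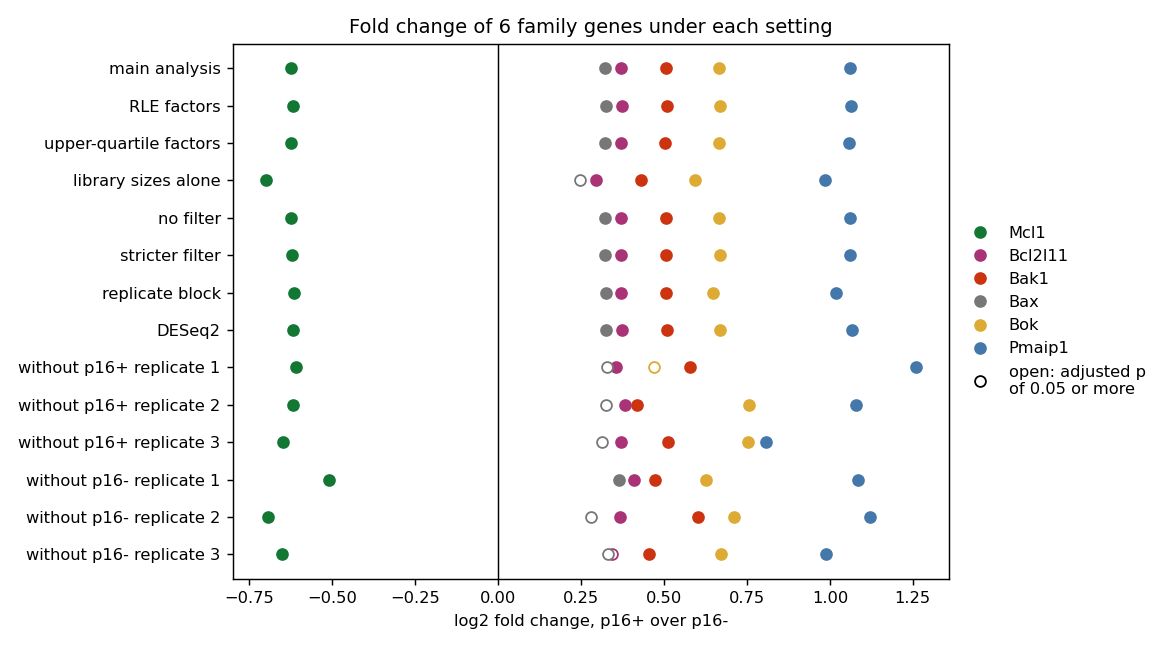
Log2 fold change of p16+ over p16- (horizontal axis) for Mcl1, Bcl2l11, Bak1, Bax, Bok and Pmaip1 in the main analysis and under each of 13 alternatives (rows), with filled points for an adjusted p under 0.05. Mcl1, from -0.70 to -0.51, and Bak1 and Pmaip1, at 0.42 or more, are filled in each row, and Bax is open in 6 of the 13 alternatives.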

How the data were processed

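Each deposited file gives integer counts per gene, produced by the authors using featureCounts 1.6.0 over exons of GENCODE vM21, with read pairs as fragments and no option for strand or overlap, per the file headers. The submitters' processing notes name bcl2fastq, STAR 2.7.3a and GRCm38.p6. The library kit in the labels, TruSeq RNA V2, is known not to mark strand. Under these settings fragments on exons shared between genes are counted for neither gene. A low count of an overlapping gene therefore says nothing about the shared stretch. All 55536 gene IDs matched vM21. No filler, harvest time or batch is given per library.

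From these counts, genes were filtered with filterByExpr (15903 left, at least 99.918% of counts), scaled by TMM and tested with edgeR 4.0.16 in R 4.3.3 (glmQLFit with robust estimation, glmQLFTest, group alone). Adjusted p-values are Benjamini-Hochberg over all genes tested, threshold 0.05. Intervals of 95% use the model's standard error. Log2 CPM had a prior count of 2. DESeq2 1.42.0 was an alternative. Sequences are from RefSeq (promoters, GRCm38.p6) and vM21 transcripts. The main model did not use replicate numbers as pairs. It is unknown if p16+ and p16- libraries that share a number had an animal in common.

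The members and lists were chosen with earlier results of these data known. Named genes were the 10 members, other family genes that passed the filter, and up to 4 genes of smallest p per pathway list, or its most abundant gene where none passed. Some listed genes are not reported here by name. Intervals and floors cover counting error or spread between libraries only.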

Additional observations from a re-analysis of the deposited data

How the results depend on the processing

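Mcl1, Bak1 and Pmaip1 kept direction and call under all 13 alternatives (RLE or upper-quartile factors, library sizes alone, no filter, a stricter filter of 1 CPM in 3 libraries, DESeq2, a replicate block, and each library left out), with log2 fold changes of -0.70 to -0.51, 0.42 to 0.60 and 0.81 to 1.26. The number of genes called was 2660, 3114 with the replicate block and 1887 to 2567 with a library left out. With library sizes alone 36.0% of calls were higher in p16+ in place of 52.0%, and the median of all genes moved from -0.01 to -0.08. Deviations from the group means had correlations of 0.03, 0.08 and -0.005 between same-numbered libraries of the groups. Between libraries of different numbers they were -0.07 to 0.04. The block changed no call of a member.

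With a library left out, 1 to 2 pro-apoptotic members, 1 to 3 other family genes, 0 to 1 execution genes, 0 to 1 inhibitors of apoptosis, 2 to 3 death receptor genes and 3 to 6 regulators were called. Execution genes called were 0 with library sizes alone, 2 with the stricter filter and 2 with DESeq2. Inhibitors of apoptosis called were 1 with library sizes alone and 1 without the filter. Regulators called were 9 with the replicate block, 4 with library sizes alone and 5 without the filter, against 6 in the main analysis. Death receptor genes called were 5 with DESeq2 and 3 with library sizes alone, and other family genes 2 with library sizes alone. The cause was not tested. Uncalled genes that changed sign were Bik (-1.02 to 0.37), Bcl2l12 (-0.051 to 0.49) and Bnip3 (-0.059 to 0.17) with a library left out, and Bcl2l13 with library sizes alone (-0.014). The stricter filter removed Bik, Hrk, Bcl2a1b and Bcl2l15. Low counts limit these 4 genes. Where a library was left out of a group, 2 remained in it.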
